A study of Saccharomyces cerevisiae with 7 samples.

Results

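The 67 genes described here encode proteins of the mitochondrial ribosome of budding yeast, Saccharomyces cerevisiae. They were chosen by name, with earlier results of these data known. The rule took every S. cerevisiae probe set whose platform symbol was MRPL, MRPS, MRP or RSM followed by a number, or YML6. Each gene had 1 probe set, and they are 67 of 5449 genes measured. By textbook knowledge 38 belong to the large subunit and 28 to the small subunit. The remaining one, MRP8, carries the family name but is not an established ribosomal protein. A further gene whose reference symbol has this form, MRP35, had no named probe set.

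The samples were 7 one-colour Affymetrix arrays of total RNA. The scc2-4 cells (strain Y4251, MATa, Scc1-Pk9::TRP1, Sth1-9myc::URA3) and the sth1-3 cells (strain Y4343, MATα, sth1-3ts, Scc2-Pk9::TRP1) had 2 arrays each, as did wild type cells at 37C, and wild type cells at 25C had 1. Scc2 takes part in loading cohesin onto chromosomes and Sth1 is the motor subunit of the RSC chromatin remodeller, and the alleles lose function at high temperature. The wild type strain (YK700, MATa) carried ade2-1, trp1-1, can1-100, his3-11,15, leu2-3, 112 and ura3-52, with GAL and psi+. All cultures grew in YP medium with glucose (2%) until the OD600 reached 0.25, and the 37C groups then spent 2 h at that temperature. The mutants differ from the wild type in epitope tags and, for sth1-3, in mating type as well as in the named allele, and these cannot be told apart.

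The mitochondrial ribosome translates the few messages of mitochondrial DNA, most of which encode membrane subunits of the respiratory chain and of ATP synthase. Nearly all of its proteins are encoded in the nucleus, made in the cytosol and imported. Yeast grown in glucose ferments and has less need of respiration, and in S. cerevisiae many of the mRNAs in this family are bound by the RNA-binding protein Puf3, which acts on their stability and location.

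Most of these genes gave no signal that could be told from background. The background of an array was taken as the 95th percentile of 1746 probe sets for the fission yeast Schizosaccharomyces pombe on the same array, and lay at 9.94 to 10.07 on the log2 scale. Of the 67 genes, 57 lay below it on every array, 8 passed it on some arrays and 2, MRPS12 and RSM7, on all 7. By array, 5 and 3 members passed it in scc2-4 (7.46% and 4.48%, against 11.1% and 9.41% of all genes). In sth1-3 it was 4 and 2 (5.97% and 2.99%, against 10.5% and 8.06%). In 37C wild type it was 4 and 6 (5.97% and 8.96%, against 9.01% and 8.92%), and in 25C wild type 6 (8.96%, against 12.9%). By its definition the cut-off also lets the brightest S. pombe probe sets through, so passing it on an array is not proof of a transcript. Over all genes 22.6% passed on at least 1 array, against 14.9% of the members. The 57 dim members had values between 6.22 (MRPL22) and 9.93 (MRPL50), and for them a low or steady value says little about the RNA. Probe sets differ in brightness for the same amount of RNA, so values below are compared between arrays and never between genes.

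**Figure D1:**
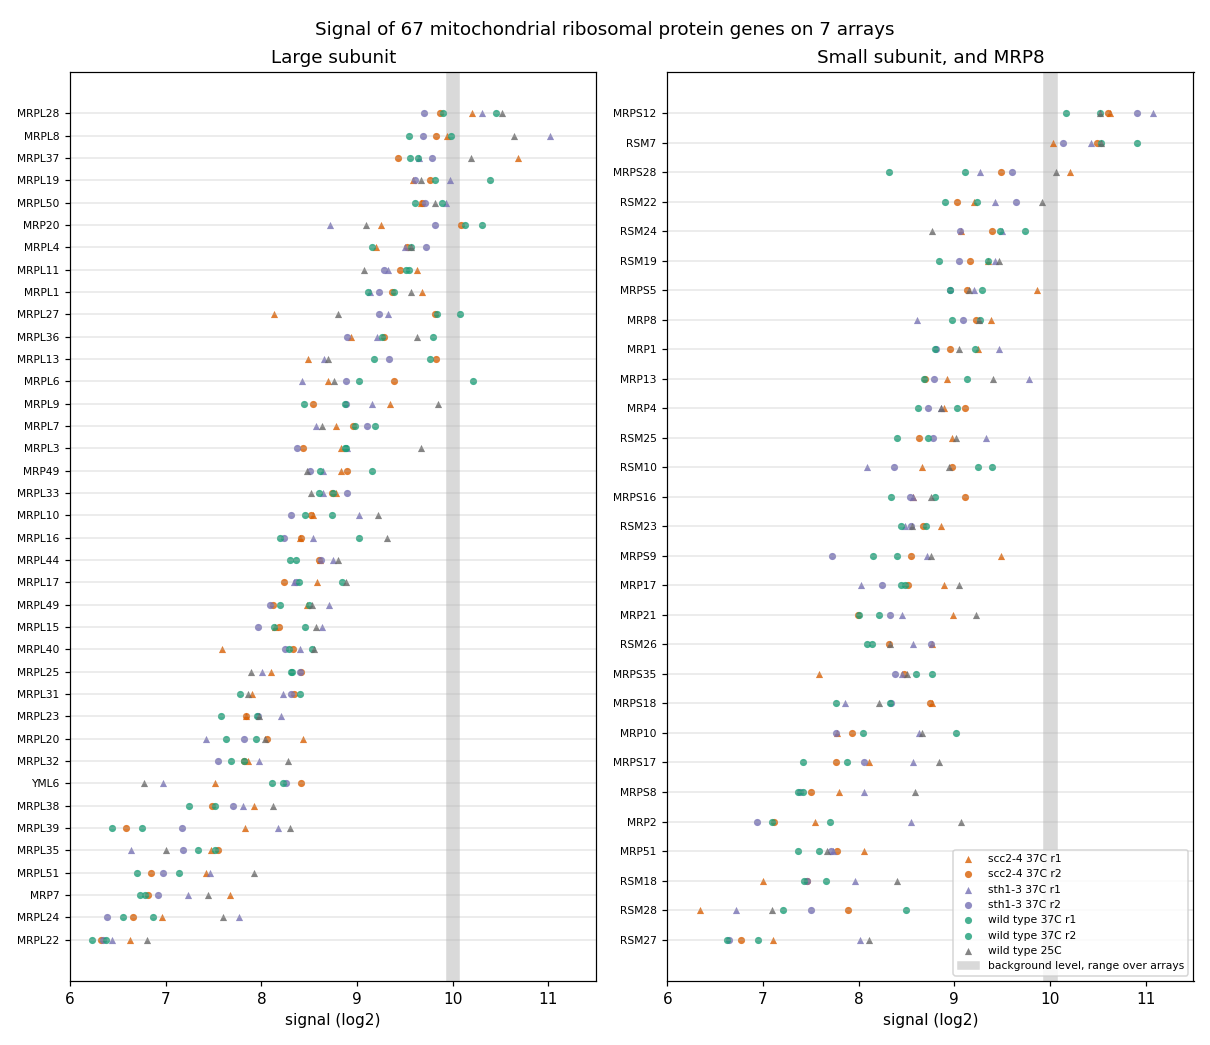
Log2 signal of each member (rows) on each of the 7 arrays. Colours give the group, triangles the 3-array set and circles the 4-array set. The grey band spans the background levels of the arrays, 9.94 to 10.07; only MRPS12 and RSM7 lie above background on all 7 arrays.

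By their bacterial hybridisation controls the arrays fell into sets that cross the groups. The mean control signal was 12.49 on replicate 1 of scc2-4, 12.25 on replicate 1 of sth1-3 and 12.53 on wild type at 25C, called the 3-array set. It was 11.52 to 11.72 on the other arrays, the 4-array set. The excess of the 3' over the 5' probe set of the 25S ribosomal RNA was 3.03 to 4.16 on the 3-array set, against 0.30 to 0.69 on the 4-array set. The wild type 25C array was in the first set and both wild type 37C arrays in the second, so temperature and array set cannot be told apart within wild type. Each mutant had 1 array in each set. For the mutants, counts are therefore also given with the array set as a term, and for several members the difference with that term or within the 4-array set is given too. The part of the sets in each result was not tested.

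The small subunit gene MRPS12 encodes the homologue of bacterial S12, a protein of the decoding centre. Its log2 signal was 10.62 and 10.60 in scc2-4, 11.07 and 10.91 in sth1-3, 10.52 and 10.17 in 37C wild type, and 10.52 in 25C wild type. Both arrays of either mutant lay above both wild type 37C arrays. In sth1-3 it was 1.57-fold the wild type 37C level (log2 difference 0.65, SE 0.32, adjusted p = 0.824, limma), and in scc2-4 1.21-fold (adjusted p = 0.998, limma). Neither passed the threshold of 0.05.

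RSM7, the homologue of bacterial S7, measured 10.03 and 10.49 in scc2-4, 10.42 and 10.14 in sth1-3, 10.54 and 10.91 in 37C wild type, and 10.53 in 25C wild type. All 4 mutant arrays lay below both wild type 37C arrays. The log2 difference from wild type at 37C was -0.46 in scc2-4 and -0.44 in sth1-3 (SE 0.34 each), and the adjusted p was 0.998 and 0.824. Within the 4-array set these differences were -0.23 in scc2-4 and -0.59 in sth1-3. MRPS12 and RSM7 thus stood on opposite sides of wild type at 37C, by amounts that did not pass the test, and both mutants are set against the same wild type arrays. In the gene order of the R64 reference, MRPS12 and RSM19, also of the small subunit, are the 1 pair of members that are direct neighbours. RSM19 measured 9.36 and 9.17 in scc2-4, 9.42 and 9.05 in sth1-3, 8.84 and 9.35 in 37C wild type, and 9.46 in 25C wild type, below background on all arrays.

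The remaining small subunit gene above background on at least 1 array was MRPS28, whose product is the homologue of bacterial S15. It measured 10.21 and 9.49 in scc2-4, 9.27 and 9.61 in sth1-3, 9.11 and 8.32 in 37C wild type, and 10.07 in 25C wild type. It was above background on 1 scc2-4 array and on the wild type 25C array, both of the 3-array set.

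Of the large subunit, 7 genes passed background on at least 1 array. MRPL28, a component without a bacterial counterpart, measured 10.20 and 9.87 in scc2-4, 10.31 and 9.70 in sth1-3, 9.89 and 10.45 in 37C wild type, and 10.52 in 25C wild type. The groups at 37C overlapped. MRPL8, the homologue of bacterial L17, measured 11.02 and 9.68 in sth1-3, 9.94 and 9.82 in scc2-4, 9.54 and 9.99 in 37C wild type, and 10.64 in 25C wild type. It was high on 1 sth1-3 array and at 25C, both in the 3-array set, and its spread between the sth1-3 replicates (SD 0.94, n = 2) exceeded its difference from wild type at 37C (0.59). That difference was -0.08 within the 4-array set.

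MRPL37, likewise without a bacterial counterpart, was high on scc2-4 replicate 1 (10.68) and lower on replicate 2 (9.43), with 9.65 and 9.78 in sth1-3, 9.55 and 9.64 in 37C wild type, and 10.19 in 25C wild type. MRP20, the homologue of bacterial L23 at the exit of the peptide tunnel, measured 9.25 and 10.09 in scc2-4, 8.71 and 9.82 in sth1-3, 10.12 and 10.30 in 37C wild type, and 9.10 in 25C wild type. The 3 lowest values of MRP20 were those of the 3-array set. MRPL19, the homologue of L11, passed background only on wild type 37C replicate 2 (10.39). So did MRPL27, barely, at 10.0733 against a background of 10.0695. MRPL6, the homologue of L6, passed it only on wild type 37C replicate 1 (10.21). Of the members named for their average brightness, MRPL50, the homologue of L9 (9.61 to 9.93), and MRPL4, the homologue of L29 (9.16 to 9.72), stayed below background on all arrays.

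**Figure D2:**
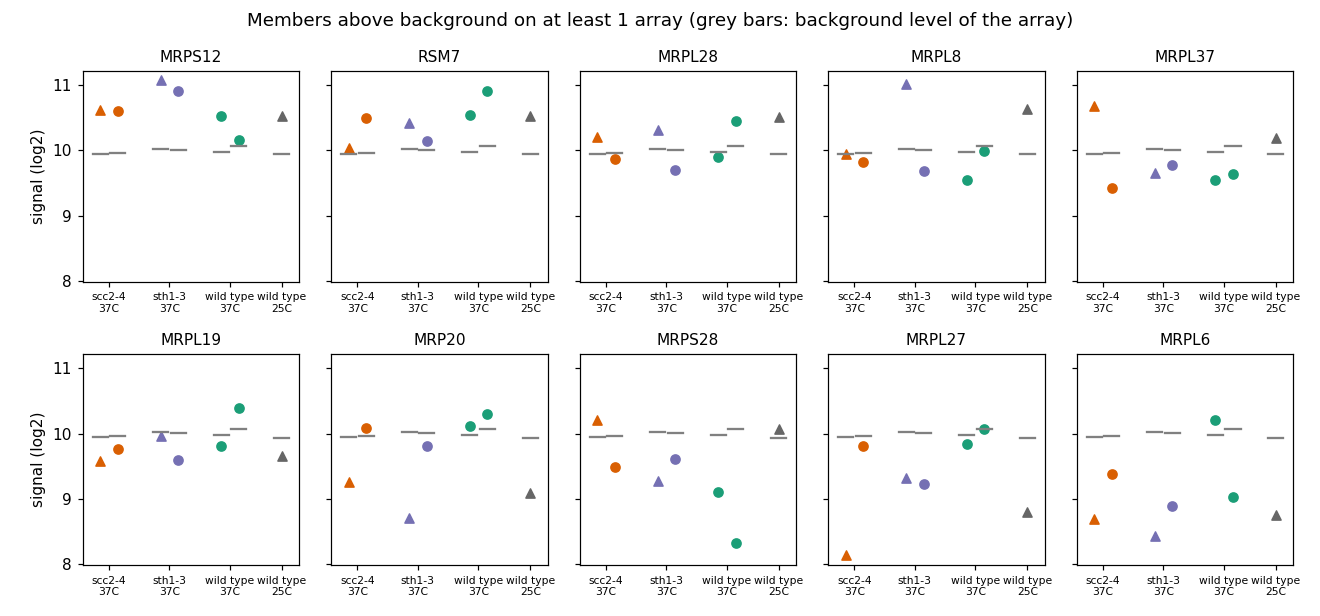
Log2 signal of the 10 members above background on at least 1 array, by group, replicate 1 left of replicate 2. Triangles mark the 3-array set, circles the 4-array set and grey bars each array's background. MRPS12 was highest on the sth1-3 arrays (11.07 and 10.91), and MRP20 was lowest on the 3 triangles (8.71 to 9.25).

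In scc2-4 against wild type at 37C, no member passed the threshold (limma, 67 members within a fit of 5449 genes, lowest adjusted p = 0.998), and no other gene did (0% called). The median log2 difference of the members was 0.08, against -0.01 over all genes, and 39 were higher and 28 lower (49.5% of all genes were higher). With the array set as a term no member was called either, against 0.128% of all genes. At an unadjusted p under 0.05 there was 1 member, MRPS28, against 1.25% of all genes. The groups' arrays were apart in 11 members higher and 10 lower, against 15% and 14.1% of all genes.

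MRPS28 averaged 9.85 ± 0.51 in scc2-4 and 8.72 ± 0.56 in 37C wild type (SD, n = 2 each). The log2 difference of 1.13 had an SE of 0.41 and an adjusted p of 0.998, and no fold is given because the bound from background was under 1. It was 1.04 with the array set as a term and 0.77 within the 4-array set. MRPS18, the homologue of bacterial S11, averaged 8.75 ± 0.02 in scc2-4, against 8.05 ± 0.40 for wild type. MRPS9, the homologue of S9, averaged 9.02 ± 0.67 in scc2-4, against 8.27 ± 0.18 for wild type. The members with the smallest p among those lower in scc2-4 were MRPL27 (8.98 ± 1.19 in scc2-4, 9.96 ± 0.17 in wild type), MRPS35 (8.03 ± 0.63, 8.68 ± 0.11) and RSM10, the homologue of S10 (8.82 ± 0.22, 9.32 ± 0.10). Of these, 3 rested on scc2-4 replicate 1. Without that array the log2 difference was -0.14 for MRPL27 (-0.98 with it), -0.21 for MRPS35 (-0.65 with it) and 0.28 for MRPS9 (0.75 with it). The differences of MRPS28 and MRPS18 leaned on wild type 37C replicate 2, and were 0.74 and 0.43 without it, against 1.13 and 0.71 with it. The adjusted p of each of these members was 0.998.

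The subunits had medians of -0.01 (large, 19 of 38 higher) and 0.19 (small, 19 of 28 higher) in scc2-4. On replicate 1 the small subunit median relative to the wild type 37C mean was 0.27, and on replicate 2 it was 0.04. The large subunit lay at -0.00 and -0.06. The difference between the subunits was not tested.

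In sth1-3 against wild type at 37C, no member passed either (lowest adjusted p = 0.824, limma, and 0% of all genes called). The median of the members was 0.01, against 0.03 over all genes, with 35 higher and 32 lower (53% of all genes were higher). The fit with the array set term also called no member, against 0.184% of all genes. Only RSM10 had an unadjusted p under 0.05, against 3.78% of all genes. The groups' arrays were apart in 15 members higher and 11 lower, against 18% and 18.8% of all genes.

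RSM10 measured 8.09 and 8.37 in sth1-3, 8.66 and 8.98 in scc2-4, 9.25 and 9.39 in 37C wild type, and 8.95 in 25C wild type. Both sth1-3 arrays were below all 5 others, and every value was below background. The log2 difference in sth1-3 was -1.09 (SE 0.32, 95% interval -1.82 to -0.36, adjusted p = 0.824), with -0.94 under the array set term and -0.95 within the 4-array set. MRP20 averaged 9.26 ± 0.78 in sth1-3, against 10.21 ± 0.13 for wild type. Its bound from background was at least 1.15-fold lower in the mutant. The 95% interval of its log2 difference, -1.99 to 0.10, included no change. MRPL6 averaged 8.66 ± 0.33 in sth1-3, against 9.62 ± 0.84 for wild type. The wild type value of MRPL6 rested on replicate 1, at 10.21 beside 9.02 on replicate 2, and without replicate 1 the log2 difference was -0.37, against -0.96 with it. Within the 4-array set MRP20 differed by -0.40 and MRPL6 by -0.73.

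Besides MRPS12, the higher members with the smallest p were MRPL39, the homologue of bacterial L33, and MRPS17, the homologue of S17. MRPL39 averaged 7.67 ± 0.71 in sth1-3, against 6.60 ± 0.22 for wild type. MRPS17 averaged 8.32 ± 0.36 in sth1-3, against 7.65 ± 0.33 for wild type, and both genes were below background. Within the 4-array set the log2 difference of MRPL39 was 0.57, against 1.07 over both sets, and that of MRPS17 was 0.41, against 0.66. The adjusted p of all 6 was 0.824. The large subunit had a median of -0.03 (19 of 38 higher) and the small subunit 0.14 (16 of 28 higher). On replicate 1 the small subunit lay at 0.33 above the wild type 37C mean and on replicate 2 at -0.09, so its direction differed between the replicates, which belong to different array sets.

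**Figure D3:**
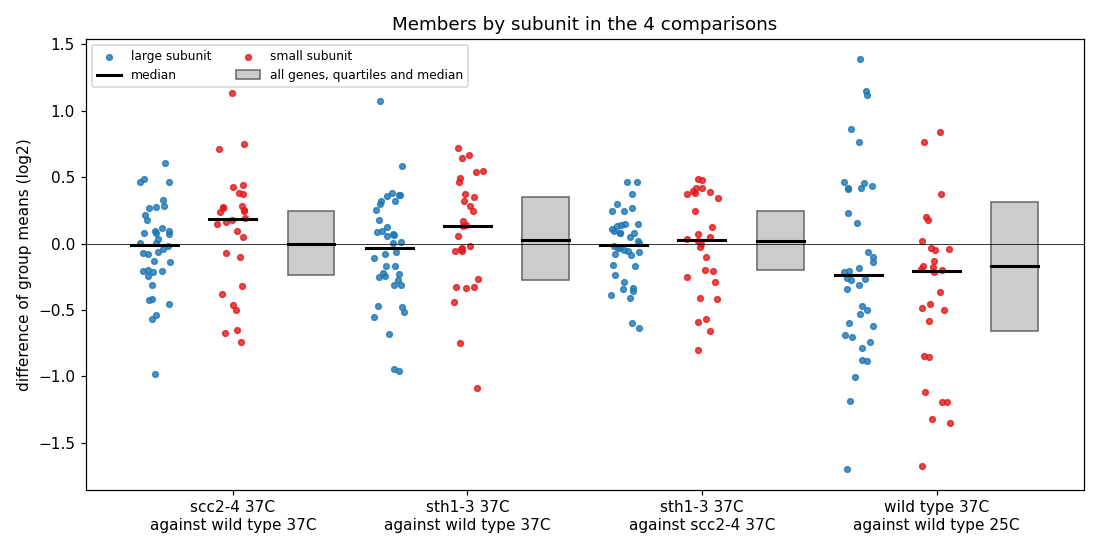
Differences of group means (log2) for members of the large and the small subunit in the 4 comparisons, with the median as a black line. Grey boxes give the quartiles and median of all 5449 genes. In the first 3 comparisons the subunit medians lie between -0.03 and 0.19, and in 37C wild type against 25C they are -0.23 and -0.21, beside -0.17 for all genes.

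Between the mutants, sth1-3 against scc2-4, no member passed (adjusted p = 1.00 for each, limma, 0% of all genes called) and none had an unadjusted p under 0.05, against 0.385% of all genes. The median difference was 0.00, against 0.02 over all genes, and 34 members were higher and 33 lower (52.8% of all genes were higher). The groups' arrays were apart in 6 members higher and 13 lower, against 8.44% and 9.62% of all genes. Each array set gives this difference on its own from separate arrays. The median was 0.11 in the 3-array set (37 of 67 higher) and -0.13 in the 4-array set (23 of 67 higher), beside 0.08 and -0.03 over all genes. In both sets 12 members were higher and 19 lower in sth1-3, and 36 differed in direction. The share with the same direction was 46.3%, and 46.8% over all genes.

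The lower members with the smallest p were MRPL20 (7.62 ± 0.28 in sth1-3, 8.25 ± 0.27 in scc2-4), MRPS18 (8.10 ± 0.34, 8.75 ± 0.02) and RSM10 (8.23 ± 0.20, 8.82 ± 0.22). The higher ones were RSM18, the homologue of S18 (7.71 ± 0.35 in sth1-3, 7.23 ± 0.32 in scc2-4), RSM22, which resembles methyltransferases (9.53 ± 0.15, 9.11 ± 0.12), and MRPS12 (10.99 ± 0.12, 10.61 ± 0.02). Within the 4-array set the log2 difference of RSM18 was 0.01, against 0.48 over both sets. That of MRPL20 was -0.25, against -0.63, and that of MRPS18 was -0.40, against -0.66. Among these 6, only MRPS12 was above background in either mutant, and its ratio was 1.30-fold. MRP8 measured 8.61 and 9.09 in sth1-3, 9.38 and 9.23 in scc2-4, 8.97 and 9.27 in 37C wild type, and 9.25 in 25C wild type, below background throughout.

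**Figure D4:**
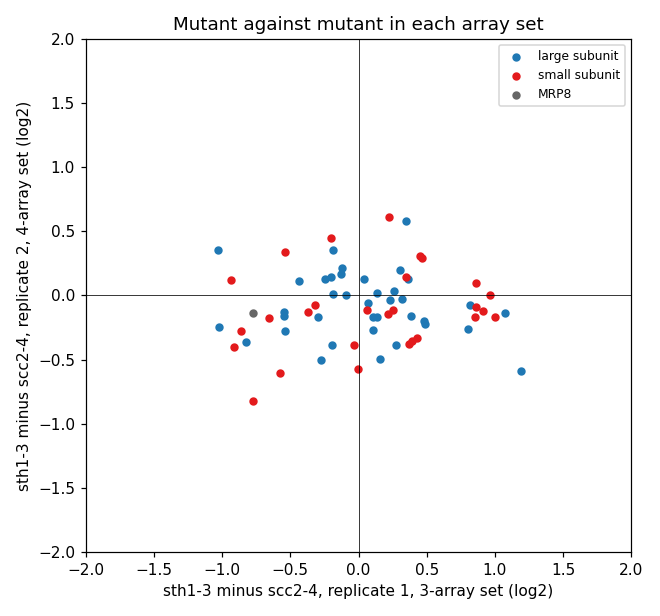
Difference between sth1-3 and scc2-4 (log2) for each member, on the replicate 1 arrays of the 3-array set (horizontal axis) and on the replicate 2 arrays of the 4-array set (vertical axis). The points scatter over all 4 quadrants: 12 members are higher in both, 19 lower in both and 36 opposite.

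In the wild type, at 37C against 25C, 48 members were lower and 19 higher, with a median of -0.21. All genes shifted the same way, with a median of -0.17 and 60.1% lower. After each array was centred on the median of its genes, the members' median was -0.03, and 29 were higher and 38 lower. No member passed the threshold (lowest adjusted p = 0.449, limma, 0% of all genes called). At an unadjusted p under 0.05 there were 8 members lower and 1 higher, against 6.94% and 3.25% of all genes.

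The lower members with the smallest p were MRPS8, the homologue of bacterial S8 (7.37 and 7.42 at 37C, 8.59 at 25C), MRPL39 (6.44 and 6.75 at 37C, 8.29 at 25C) and MRPS17 (7.42 and 7.88 at 37C, 8.84 at 25C). The higher ones were YML6, the homologue of L4 (8.11 and 8.22 at 37C, 6.78 at 25C), RSM24 (9.48 and 9.74 at 37C, 8.77 at 25C) and MRP20 (10.12 and 10.30 at 37C, 9.10 at 25C). Of these, MRP20 alone was above background, at 37C, and was at least 1.21-fold higher there (adjusted p = 0.451, limma). The array set term is estimated from the mutant arrays alone, because wild type at each temperature lay in only 1 set. It therefore does not separate temperature from array set within wild type. With the array set as a term the log2 differences shrank to -0.71 for MRPS8, -0.58 for MRPL39, -0.76 for MRPS17, 0.29 for YML6 and 0.15 for MRP20, while RSM24 was at 0.90, against 0.84 without the term, all with an adjusted p of 1.00; 0.0734% of all genes were called in that fit. When the 3 wild type arrays were fitted alone, with 1 residual degree of freedom, 11 members passed the threshold (3 higher and 8 lower, 16.4%), against 16.7% of all genes.

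Many members differed between the array sets, about as often as other genes. All 3 arrays of the 3-array set lay above all arrays of the 4-array set in 15 members and below them in 7, against 21.6% and 14% of all genes. MRPL39 averaged 8.10 over the 3-array set, against 6.74 over the 4-array set, RSM27 averaged 7.74 and 6.75, and MRPS9 averaged 8.99 and 8.20. In the other direction stood YML6 (7.09 over the 3-array set, 8.25 over the 4-array set), MRP20 (9.02, 10.08), RSM28 (6.72, 7.77) and MRPL13 (8.61, 9.52). These sets were read from the controls and are not groups of the study.

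Replicates of a member differed by a median of 0.33 in scc2-4, 0.37 in sth1-3 and 0.31 in the 37C wild type, and by 0.39, 0.48 and 0.32 over all genes. Differences over 1 log2 unit between replicates occurred in 5, 7 and 2 members (7.46%, 10.4% and 2.99%), against 14.2%, 19.4% and 3.01% of all genes. The widest was MRPL27 (-1.68, replicate 1 minus replicate 2) in scc2-4, MRP2 (1.61) in sth1-3 and RSM28 (1.28) for wild type. The 95% interval of a member's log2 difference between 2 groups at 37C reached a median of 0.80 to either side.

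Other genes of mitochondrial translation were also counted above background on at least 1 array, where the share of all genes was 22.6%. The counts were 2 of 12 ribosomal proteins with other names, 3 of 9 translation factors, 3 of 13 tRNA synthetases and 2 of 15 translational activators. For ribosome assembly and membrane insertion it was 1 of 11 genes, and for the mitochondrial RNA polymerase 0 of 2. Mitochondrial ribosomal proteins with other names had 12 of 13 measured, as VAR1, the ribosomal protein encoded in mitochondrial DNA, had no named probe set. Their median was -0.02 in scc2-4 and -0.05 in sth1-3 relative to wild type at 37C, with 6 of 12 and 5 of 12 higher. IMG1, a large subunit protein, was above background on all arrays, at 10.65 and 9.98 in scc2-4, 10.30 and 10.32 in sth1-3, 10.12 and 10.28 in 37C wild type, and 10.35 in 25C wild type. PPE1 was above it on 1 array, sth1-3 replicate 1 (10.44).

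Translation factors of mitochondria had medians of 0.19 in scc2-4 (6 of 9 higher) and 0.42 in sth1-3 (7 of 9 higher). On the replicate 1 arrays the medians were 0.58 and 0.67 relative to the wild type 37C mean, and on the replicate 2 arrays -0.14 and 0.01. FMT1, which formylates the initiator tRNA, measured 10.77 and 9.60 in scc2-4, 10.40 and 9.58 in sth1-3, 9.52 and 9.95 in 37C wild type, and 10.57 in 25C wild type. MEF1, an elongation factor, measured 9.88 and 9.08, 10.65 and 9.26, 9.14 and 9.45, and 10.35 in the same groups. Both genes were highest on the 3-array set.

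Mitochondrial tRNA synthetases had medians of -0.07 in scc2-4 and -0.08 in sth1-3, translational activators 0.08 and 0.06, and genes of ribosome assembly and membrane insertion 0.11 and 0.06. Among the brightest of these, PET494, an activator of COX3 translation, was above background on all arrays, at 10.21 and 10.44 in scc2-4, 10.37 and 10.57 in sth1-3, 10.15 and 10.11 in 37C wild type, and 10.21 in 25C wild type. MSR1, the arginyl-tRNA synthetase, spanned 9.68 to 10.67, MSW1, the tryptophanyl-tRNA synthetase, 8.97 to 10.16, and PET122 9.37 to 10.22. AFG3 and MTG1 lay at 9.37 to 9.66 and 8.85 to 9.99, and the polymerase genes MTF1 and RPO41 at 7.31 to 8.68 and 7.21 to 7.76. None of the genes in these lists passed the threshold in any of the 4 comparisons (limma).

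The cytosolic ribosomal protein genes, which serve the other ribosome of the cell, had a median that varied more between these arrays. Relative to the wild type 37C mean, their median over 128 genes was 1.39 and 0.05 on the scc2-4 arrays, 1.75 and 0.38 on the sth1-3 arrays and 1.51 at 25C. The medians of the mitochondrial family were 0.10 and 0.00, 0.13 and -0.08, and 0.21. Genes of the respiratory complexes, ATP synthase and their assembly lay at 0.08 and 0.04, 0.41 and 0.01, and 0.50 on the same arrays, over 52 genes. Of the cytosolic genes 75 and 12 were above background on the scc2-4 arrays, 80 and 16 on the sth1-3 arrays, 9 and 11 in 37C wild type, and 77 at 25C. On at least 1 array 97 of the 128 cytosolic genes passed background, against 10 of the 67 members. For members below it a steady value says little about the RNA, so the lists are not alike in this comparison. The members' median also covers single genes that differed in opposite directions between the array sets. The difference between the lists was not tested.

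**Figure D5:**
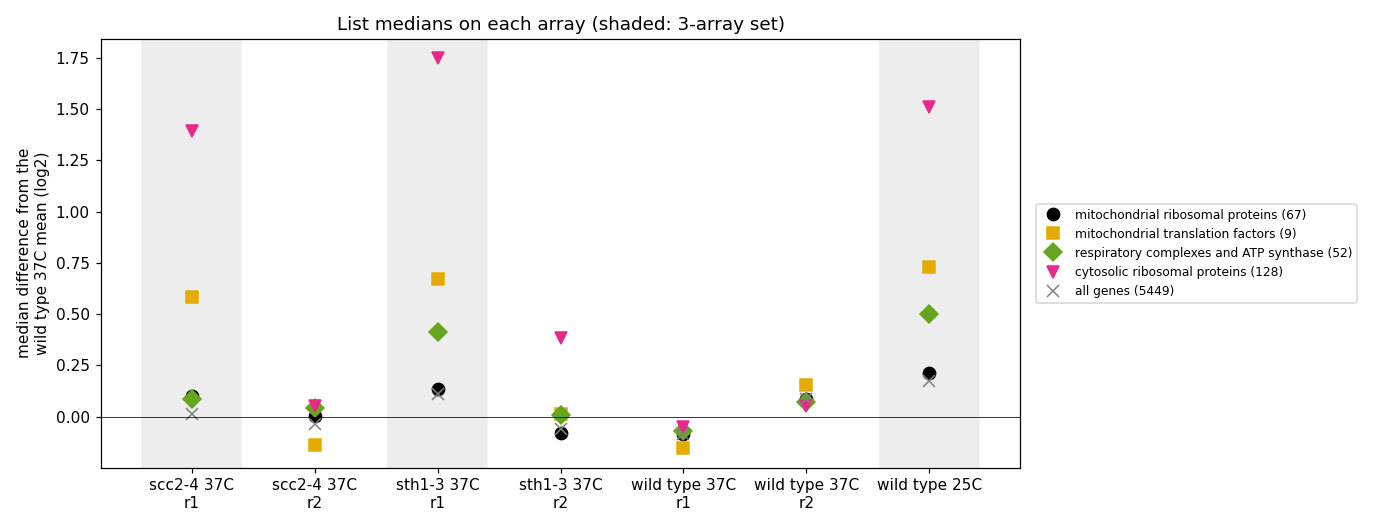
Median log2 difference from the wild type 37C mean on each array, for the 67 members, 3 other lists and all genes; shaded arrays form the 3-array set. The median of the cytosolic ribosomal protein genes reaches 1.39 to 1.75 on the shaded arrays. That of the members lies between -0.09 and 0.21 on every array, but 57 of the 67 are below background throughout.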

How the data were processed

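Transcript levels were measured on 7 arrays. The deposited values are log2 signals, 1 per probe set and array. Per the submitters' processing notes, the authors used RMA and the affy package. RMA corrects background, makes the array distributions equal by quantile normalization and summarises probes, which can narrow a shift shared by many genes. Whether the 7 arrays were normalized as one set is not given in the sources used here. Of 10928 probe sets, 7244 carried 1 gene symbol, 1 carried several and 3683 none in the annotation used. Of the 7244, 5498 were of S. cerevisiae and 1746 of S. pombe, by the gene identifiers of the R64 reference, which also updated 12 symbols. The brightest probe set stood for a gene, which left 5449 genes.

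Groups came from the sample titles; the growth text of the wild type 25C sample also describes the shift to 37C. One mean per group was fitted to all 7 arrays with limma 3.58.1 in R 4.3.3 (lmFit, eBayes, 3 residual degrees of freedom), two-sided, with Benjamini-Hochberg adjustment over 5449 genes and a threshold of 0.05; the procedure was tested on simulated data. Where a gene was not above background on any array of a group, a fold is a bound ("at least"). It was computed with the background or the gene's own value, whichever was higher, and leaves out the spread between arrays. Lists are described by counts and medians. Nothing in the labels states that replicates came from separate cultures. The p-values thus rest on array-to-array spread, possibly technical, and the number of arrays limits the precision. The array sets were split at the largest gap in the mean of 18 hybridisation control probe sets.

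The members, lists, array sets and alternatives were chosen with earlier results of these data known. The genes named were the 10 brightest members, in each comparison the 3 members with the smallest p in each direction, MRP8, YML6, the 2 brightest genes of each other list, and, chosen after their values were seen, the members above background on any array, RSM19 and the examples for replicates and array sets. No member had several probe sets. Alternatives were a replicate block, the array set as a term or each set alone, eBayes with a trend or robust, a filter on dim genes, 3 normalizations, other choices of probe set, a fit of the compared groups alone, and leaving out each 37C array. Sequences of genes and promoters were not used here.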

Additional observations from a re-analysis of the deposited data

How the results depend on the processing

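No member was called in 69 of the 70 fits with a test across the 4 comparisons, and eBayes with a trend or robust also called 0 genes. The exception was wild type at 37C against 25C with the 3 wild type arrays fitted alone, where 911 genes and 11 members were called, with the spread taken from 1 pair of arrays. None of the members named for a small p changed direction under the alternatives run. The replicate block, fitted to the 37C arrays, called 1 gene in scc2-4 and 1 in sth1-3 against wild type and no member. The replicate numbers were not taken as pairs: deviations of same-numbered arrays correlated at 0.55 between scc2-4 and sth1-3, and at -0.20 and -0.36 between these and wild type. The block was not possible for the 25C array. The array set term called 7, 10 and 4 genes in scc2-4 against wild type, sth1-3 against wild type and wild type at 37C against 25C, and the 4-array set alone 6, 13 and, between the mutants, 1.

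The members' median in scc2-4 against wild type was 0.20 after centring on the S. pombe probe sets. In sth1-3 against wild type it was 0.12 over the 7 members kept by the filter on dim genes. Between the mutants it was -0.13 in the 4-array set. In wild type at 37C against 25C it was -0.0885 with the array set term and -0.34 over the 7 members kept by the filter. That filter used the same values: MRPL8, MRPL37 and MRPS28 passed it partly through the 25C array and were below background in 37C wild type. A lower filtered median at 37C was thus partly built in. Median centring gave -0.0296 and quantile normalization -0.0270. The cause of these shifts was not tested. Leaving out each 37C array in turn gave medians of 0.00 to 0.10 in scc2-4 against wild type, -0.0821 to 0.13 in sth1-3 against wild type, -0.17 (without sth1-3 replicate 1) to 0.13 (without sth1-3 replicate 2) between the mutants, and -0.34 (without wild type 37C replicate 2) to -0.21 in wild type at 37C against 25C, and called 0 to 1 genes. With background set at the 90th or 99th S. pombe percentile, chosen after seeing the data, 21 or 4 members passed it on at least 1 array, against 10.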
